A study of Arabidopsis thaliana with 12 samples.

Results

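AT2G04050 and AT2G04070 are 2 genes of Arabidopsis thaliana for MATE transporters, in one stretch of chromosome 2. They were picked by locus, with earlier results of these arrays known, and make up 2 of the 13350 genes that a probe set of the array measured alone under the names used here. AT2G04050 was read by probe set 263402_at and AT2G04070 by 263401_at. They are near neighbours without being adjacent, since in the gene order of TAIR10.1 another 5 annotated genes stood between them, among them AT2G04060, AT2G04063 and AT2G04066.

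MATE (multidrug and toxic compound extrusion) transporters are membrane carriers that use an ion gradient to move small organic compounds out of the cytosol, across the plasma membrane or into the vacuole. Plants have many of them, with substrates such as flavonoids, citrate, alkaloids and foreign chemicals. DTX1 (AT2G04040), which stood next to AT2G04050 in the gene order, was described as an exporter of plant alkaloids and other toxic compounds. AT2G04050 is also known as a marker of mitochondrial retrograde signalling, by which disturbed mitochondria alter the transcription of nuclear genes.

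Transcripts were measured in whole Col-0 seedlings from liquid cultures grown for 9 days in long days, kept in the dark for 24 h and held in the dark from then on. Cultures received oligomycin, which blocks the ATP synthase of mitochondria, at 10 µM, or the same volume of ethanol, its solvent, and were harvested after 1 h or 4 h. All 4 groups (oligomycin at 1 h, ethanol at 1 h, oligomycin at 4 h and ethanol at 4 h) shared genotype, darkness and sugar-containing medium, and each held 3 biological replicates. Each culture pooled many seedlings, and nothing in the labels says how the replicate cultures were separated, so p-values measure the spread between these 12 arrays. In whole seedlings, more RNA per cell and more cells that express a gene cannot be told apart.

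Values are deposited linear array intensities, given as mean ± SD (n = 3). The number of arrays limits their precision. Each change is a difference in log2(intensity + 16), oligomycin minus ethanol, a scale that understates the change of dim genes. "Rose" and "fell" are used where limma's p was under 0.05 after Benjamini-Hochberg adjustment, which ran over the 22746 probe sets tested.

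Both transporters rose within 1 h of oligomycin and rose far more by 4 h. After 1 h AT2G04050 had intensities of 127, 131.5 and 200.5 in oligomycin cultures, against 32.6, 62.2 and 59.5 in ethanol cultures. Every oligomycin array was above every ethanol array, with means of 153 ± 41.2 in oligomycin and 51.4 ± 16.4 in ethanol. The ratio of these means was 2.97, and the log2 change was 1.33 (SE 0.22, limma adjusted p = 0.00429).

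At the same time AT2G04070 had 41.7, 39.2 and 51.2 in oligomycin cultures, against 13.9, 12.7 and 16.2 in ethanol cultures. Again the groups did not overlap. The means were 44.0 ± 6.33 in oligomycin and 14.3 ± 1.78 in ethanol, a ratio of 3.09 and a log2 change of 0.98 (SE 0.13, limma adjusted p = 0.000996). This log2 value depends on the added constant, because the ethanol values lay below 16 or just above it. With 1 added in place of 16 it was 1.56, with adjusted p = 0.00372.

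Of all probe sets tested, 3.44% changed in either direction at 1 h, 2.3% rose, 1.14% fell and 6.85% had all 3 oligomycin arrays above all 3 ethanol arrays. With arrays centred on their medians 2.54% rose and 0.752% fell. Without replicate 3 of oligomycin at 1 h 1.51% rose and 0.431% fell, and the share that fell was 0.752%, 0.576% and 0.58% without replicate 1 of oligomycin, replicate 2 of oligomycin and replicate 1 of ethanol at 1 h. By size of the log2 change at 1 h AT2G04050 stood at place 119 from the top of 22746 probe sets and AT2G04070 at place 214.

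After 4 h AT2G04050 stood at 1414, 1328.2 and 1742.3 in oligomycin cultures, against 59.5, 82.7 and 48.6 in ethanol cultures. The lowest oligomycin array was more than an order of magnitude above the highest ethanol array. Means were 1495 ± 219 in oligomycin and 63.6 ± 17.4 in ethanol, with a ratio of 23.5 and a log2 change of 4.26 (95% interval 3.78 to 4.74, limma adjusted p = 2e-08).

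AT2G04070 stood at 801.3, 616.1 and 613.4 in oligomycin cultures after 4 h, against 10.5, 19.5 and 14.1 in ethanol cultures. This gene was dim in every ethanol array and bright in every oligomycin array. Means were 677 ± 108 in oligomycin and 14.7 ± 4.53 in ethanol, with a ratio of 46.0 and a log2 change of 4.50 (95% interval 4.21 to 4.79, limma adjusted p = 4.81e-10). Of all probe sets 36.7% changed in either direction at 4 h, 11.4% rose, 25.3% fell, and 14.5% had all 3 oligomycin arrays above all 3 ethanol arrays. With arrays centred on their medians 16.9% rose and 15% fell, so the balance of rises and falls over the whole array depended on the scaling. AT2G04070 held place 22 and AT2G04050 place 29 by the size of the rise.

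**Figure D1:**
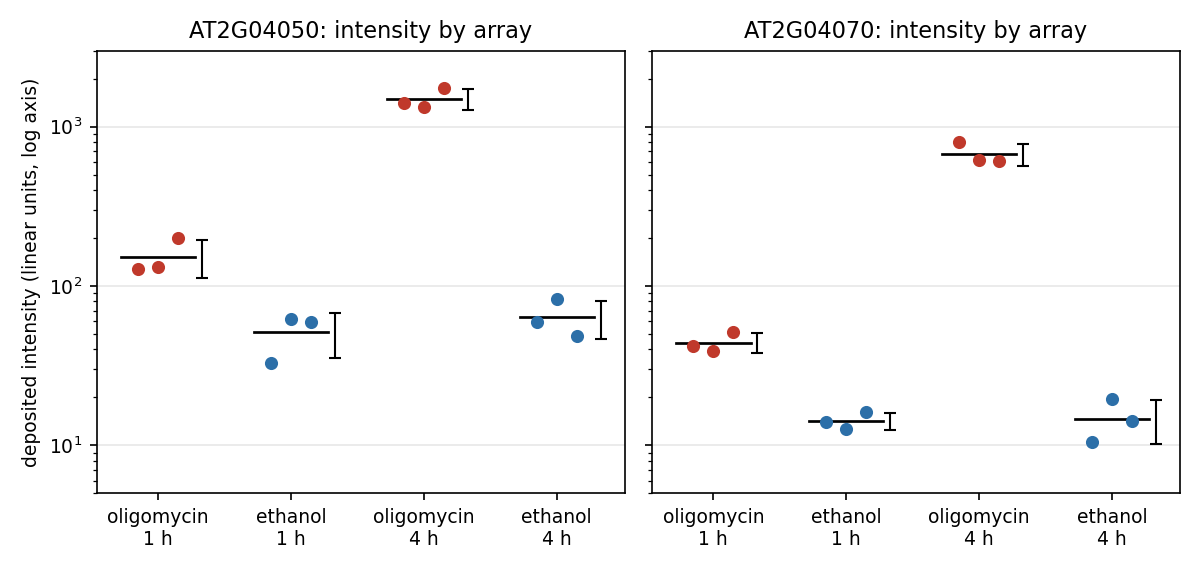
Deposited intensity (log axis, linear units) of AT2G04050 and AT2G04070 on each array, with red points for oligomycin, blue points for ethanol, black lines for the group mean and bars for its SD (n = 3). In both genes the 3 oligomycin arrays lay above the 3 ethanol arrays at each time, and the oligomycin means at 4 h were 1495 for AT2G04050 and 677 for AT2G04070.

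How bright a probe set was among all others on its array does not depend on the scaling of arrays. AT2G04070 lay between the percentiles 95.3 and 96.8 of brightness in oligomycin at 4 h, against 25.1 to 34.3 in ethanol at 4 h. In oligomycin at 1 h it lay between 47.8 and 54.2, against 23.5 to 30.1 in ethanol at 1 h. For AT2G04050 the percentiles were 98.5 to 99.1 in oligomycin against 52.4 to 66.3 in ethanol at 4 h, and 76.6 to 84.8 in oligomycin against 42.3 to 58.2 in ethanol at 1 h. Both probe sets thus lay in the brightest 5% of the array at 4 h of oligomycin, while in ethanol AT2G04070 lay in the dimmer part and AT2G04050 near the middle.

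The effect of oligomycin was larger at 4 h than at 1 h for both genes. The difference between the effects was 2.93 for AT2G04050 (SE 0.31, limma adjusted p = 4.89e-05) and 3.51 for AT2G04070 (SE 0.19, adjusted p = 5.88e-07). Of all probe sets 17.8% passed this test, 7.2% with a higher effect at 4 h and 10.6% with a lower one, a balance that turned with arrays centred on their medians (9.54% higher and 6.58% lower). Within oligomycin cultures, 4 h against 1 h, AT2G04050 rose by 3.18 and AT2G04070 by 3.52 on the log2 scale (limma adjusted p = 4.91e-07 and adjusted p = 8.2e-09), where 33.7% of all probe sets changed, 10.8% upward and 22.8% downward (17.4% and 11.9% with arrays centred on their medians). This comparison shares its arrays with the others.

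In ethanol alone no change was detected over the same hours. The difference between 4 h and 1 h was 0.25 for AT2G04050 (95% interval −0.23 to 0.72, limma adjusted p = 0.687). For AT2G04070 it was 0.012 (95% interval −0.28 to 0.30, adjusted p = 0.986). Among all probe sets 0.00879% passed in this comparison, 0% upward and 0.00879% downward. Without replicate 2 of ethanol at 1 h 90 probe sets passed upward and 43 downward, and 17 and 25 passed when the dimmest 40% were left out. Each gene thus had the same order of group means, highest in oligomycin at 4 h, then in oligomycin at 1 h, then in ethanol at 4 h and ethanol at 1 h, and the last pair did not differ beyond its spread.

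The question whether AT2G04070 and AT2G04050 responded to different degrees was put to their log2 ratio on each array. At 4 h this ratio averaged −1.13 ± 0.34 in oligomycin and −1.36 ± 0.23 in ethanol, so the effect on AT2G04070 exceeded that on AT2G04050 by 0.24 (exact two-sided permutation p = 0.3, where 0.1 is the smallest that 3 against 3 arrays allow). At 1 h the ratio averaged −1.47 ± 0.20 in oligomycin and −1.13 ± 0.38 in ethanol, and the effect on AT2G04070 was lower by 0.35 on the log2 scale, with a difference of −0.35 (exact two-sided permutation p = 0.3). This exact test cannot reach 0.05 with 3 against 3 arrays, so whether the responses of AT2G04070 and AT2G04050 differed in size was not resolved by it.

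The size of this difference at 4 h rested on the added constant. With 1 added it was 0.90, and the oligomycin ratios (−1.50 to −0.82) did not overlap the ethanol ratios (−2.40 to −1.72), with exact permutation p = 0.1. With 32 added it turned to −0.085 (exact permutation p = 1). At 1 h the difference was −0.020 with 1 added and −0.43 with 32 added (exact permutation p = 1 and p = 0.1). With 32 added the groups did not overlap at 1 h either, in the opposite direction. The oligomycin ratios (−1.48 to −1.11) lay below the ethanol ratios (−1.08 to −0.49). Since AT2G04070 was so dim in ethanol, its fold rise has a less certain size than its direction.

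The rise at 1 h was a small part of that at 4 h. In intensity units the difference between oligomycin and ethanol at 1 h was 7.1% of the difference at 4 h for AT2G04050, and 5.44% to 8% when any 1 array was left out. For AT2G04070 it was 4.49%, and 3.95% to 4.96% with any 1 array left out. A list of 20 genes known to respond to mitochondrial dysfunction, which holds both transporters, had 13 measured members. In it these shares were the lowest but for that of AT5G09570. With any 1 array left out AT1G05060 ran from 7.15% to 9.82%, which overlaps the range of AT2G04050. AT5G09570 ran from 2.34% to 4.9%, which overlaps the range of AT2G04070. This order is one of intensity units, and on the log2 scale it differed for AT2G04050, which changed by 1.33 at 1 h and 4.26 at 4 h. There NDB4 (0.57 and 2.28), NDB2 (0.80 and 2.91) and AT2G41380 (0.77 and 2.65) had reached a smaller part of their 4 h change at 1 h. AT2G04070 (0.98 and 4.50) still came next after AT5G09570 (0.34 and 2.89).

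The share of AT5G09570 was 3.29%. At the other end AT2G32020, an acetyltransferase-like gene, had reached 49.9%, AT2G41730 40.5% and AT5G43450, a gene for a protein like dioxygenases, 26.3%. The other members lay between 8.77% for AT1G05060 and 16.2% for GSTU25, a glutathione transferase, with 10.7% for NDB2 and 13% for NDB4, which encode NADH dehydrogenases of the respiratory chain. These shares are descriptions without a test.

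**Figure D2:**
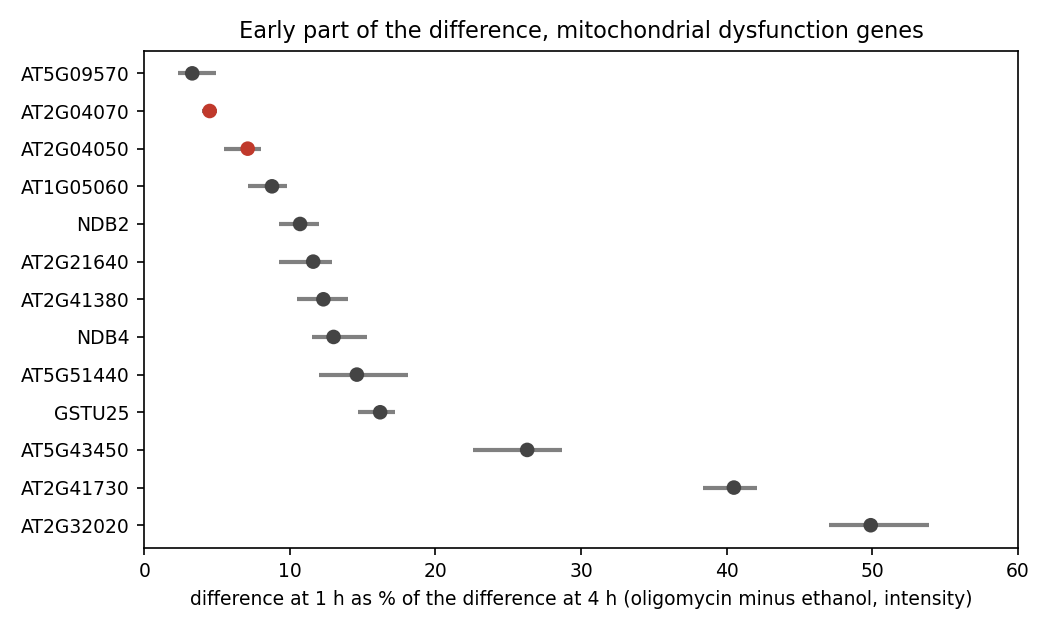
Difference in intensity between oligomycin and ethanol at 1 h as a percentage of the same difference at 4 h, for 13 genes of the mitochondrial dysfunction list, with bars for the range when 1 array is left out. In these intensity units AT2G04070 (4.49%) and AT2G04050 (7.1%), in red, lay near the low end, and AT2G32020 (49.9%) at the high end. On the log2 scale AT2G04050 did not keep this place.

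Without the transporters, 10 of the 11 measured genes of this list rose at 1 h and all 11 at 4 h, where 2.3% of all probe sets rose at 1 h and 11.4% at 4 h. Their median log2 change was 1.10 at 1 h and 2.91 at 4 h, while the medians over all probe sets were −0.044 and −0.099. The largest rises at 4 h were those of AT5G43450 (4.64), GSTU25 (4.39), AT2G32020 (4.23), AT1G05060 (4.21) and AT2G41730 (4.02), whose probe set is of the kind that can cross-hybridise. Apart from AT2G04070, only AT5G43450 and GSTU25 in this list had larger changes at 4 h than AT2G04050, and only AT5G43450 a larger one than AT2G04070. The list was chosen knowing that its genes respond in these arrays.

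A list of 22 genes for the handling of foreign compounds had 6 measured members, all enzymes, since no efflux carrier in it had a probe set of its own here. GSTU22, GSTU25 (which is on both lists), UGT73B4 and UGT73B5 rose at 1 h and at 4 h. Of all probe sets 2.3% rose at 1 h, and 11.4% rose and 25.3% fell at 4 h. This list, too, was written with earlier results of these arrays known. At 4 h the glutathione transferase GSTU22 was at 1589 ± 174 in oligomycin and 69.5 ± 11.3 in ethanol, and the glucosyltransferase UGT73B4 at 695 ± 31.2 in oligomycin and 28.7 ± 3.95 in ethanol. UGT73B5 rose by 3.54 on the log2 scale. GSTU26 and GSTU20 fell at 4 h, GSTU26 to 42.8 ± 1.89 in oligomycin, against 222 ± 58.9 in ethanol.

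The other MATE genes moved less, and in both directions. Of 56 genes listed as MATE transporters, 37 had a probe set of their own, and 12 of these had a mean intensity under 16 over the 12 arrays. At 1 h 1 of the 35 other genes rose and 1 fell, with 2.3% of all probe sets rising and 1.14% falling. At 4 h 8 of the 35 rose (22.9%) and 4 fell (11.4%), beside 11.4% of all probe sets rising and 25.3% falling. With arrays centred on their medians 14 of the 37 genes, AT2G04050 and AT2G04070 included, rose and 3 fell, beside 16.9% of all probe sets rising and 15% falling. The median log2 change of these 35 genes at 4 h was 0.019, and −0.099 over all probe sets.

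AT3G23550 had the largest rise among these 35 genes, with 389 ± 29.8 in oligomycin and 38.1 ± 5.27 in ethanol at 4 h (log2 change 2.91, limma adjusted p = 2.25e-08). AT1G33110 followed with 261 ± 18.4 in oligomycin and 37.8 ± 2.95 in ethanol (2.37, adjusted p = 8.67e-09). In both, the 3 oligomycin arrays lay far above the 3 ethanol arrays. AT1G71140 (1.66), AT1G66760 (1.41) and AT4G23030 (1.18) rose by smaller amounts. AT5G65380, the brightest of these 35 genes on its probe set, was at 499.5 ± 21.2 in oligomycin and 279 ± 21.4 in ethanol (0.81). AT5G52050 (0.72) and AT5G52450 (0.64) were the other risers.

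The falls at 4 h were those of AT5G38030, at 42.4 ± 7.15 in oligomycin and 94.1 ± 12.8 in ethanol (log2 change −0.91), AT3G26590 (−0.74), AT4G22790 (−0.56) and AT1G15180 (−0.40). AT3G26590 had 2 probe sets of its own, and only the brighter one is given here. The call of AT1G15180 was lost with array weights, after quantile normalization, with arrays centred on their medians, with 1 added in place of 16, and without any 1 of 5 arrays (limma adjusted p = 0.0528 to adjusted p = 0.144). Those arrays were replicates 1 and 3 of oligomycin at 4 h, 2 and 3 of ethanol at 4 h and 2 of oligomycin at 1 h. The remaining 23 genes had changes between −0.32 and 0.35 at 4 h and did not pass the test.

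At 1 h AT4G22790 fell to 23.8 ± 2.19 in oligomycin, against 44.3 ± 1.17 in ethanol (log2 change −0.60, limma adjusted p = 0.00265). It is the only MATE gene of the 37 that passed the test downward at 1 h, and its change at 4 h, −0.56, differed from that at 1 h by less than the error (adjusted p = 0.877 for the difference). AT3G23550 passed at 1 h with 39.1 ± 10.9 in oligomycin and 19.7 ± 5.65 in ethanol (0.62, adjusted p = 0.046). That call did not hold without any 1 of 10 of the 12 arrays, all but replicate 2 of oligomycin at 1 h and replicate 2 of ethanol at 1 h (limma adjusted p = 0.0529 to adjusted p = 0.194). It was also lost with a replicate block (adjusted p = 0.0706), with only the 6 arrays of 1 h (adjusted p = 0.166) and with 1 or 32 added (adjusted p = 0.0779 and adjusted p = 0.057). AT1G66760, with 46.2 ± 3.51 in oligomycin and 24.3 ± 12.8 in ethanol, did not pass (adjusted p = 0.0925), but did with array weights, without the dimmest 40% of probe sets and without replicate 2 of ethanol at 1 h (adjusted p = 0.0105 without that array).

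**Figure D3:**
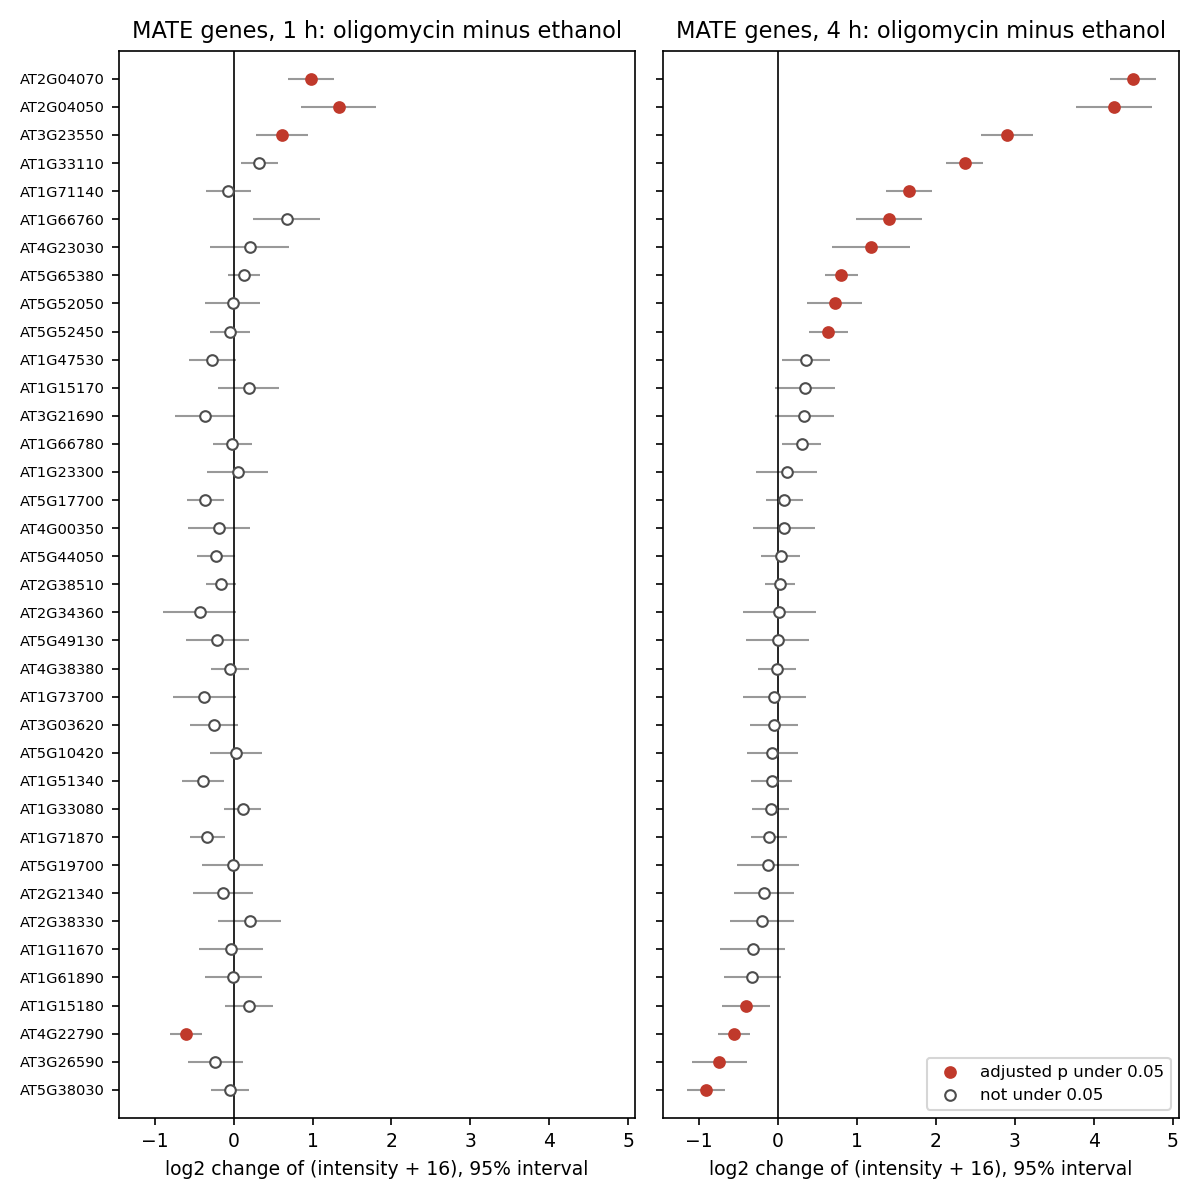
Log2 change of (intensity + 16), oligomycin minus ethanol, at 1 h and 4 h for the 37 MATE genes with a probe set of their own, with 95% intervals and filled points where the limma adjusted p was under 0.05. AT2G04070 and AT2G04050 had the largest changes at both times, and 8 other genes rose and 4 fell at 4 h.

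Among the 37 MATE genes AT2G04070 and AT2G04050 had the largest log2 changes at both times. For 7 of the 35 others the effect was also higher at 4 h than at 1 h by the test of the difference (20%, beside 7.2% of all probe sets), and for AT5G38030 it was lower (2.86%, beside 10.6%). Of these 7, AT5G52050 and AT1G47530 passed narrowly (limma adjusted p = 0.0437 and adjusted p = 0.0476). Whether the rise of AT2G04050 or AT2G04070 differed from that of another MATE gene was not tested.

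Changes were uneven among the few probe sets that read genes around the pair. Of the 25 genes between AT2G04050 and AT2G04070 and within 10 genes on either side, 4 had a probe set of their own. AT2G04060, which lay between them, was at 17.1 ± 3.87 in oligomycin and 11.7 ± 2.76 in ethanol at 4 h (log2 change 0.26, limma adjusted p = 0.135). AT2G04063, also between them, was at the bottom of the scale with 0.97 ± 0.38 in oligomycin and 1.00 ± 0.44 in ethanol.

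AT2G04039 fell at 4 h to 8.40 ± 3.56 in oligomycin, against 22.2 ± 6.06 in ethanol (−0.64, limma adjusted p = 0.00346), with both groups dim. bZIP48, a gene for a leucine-zipper transcription factor, was at 4.30 ± 1.73 in oligomycin and 2.33 ± 1.46 in ethanol at 4 h and did not pass (0.15). None of these 4 neighbours passed the limma test at 1 h, where 3.44% of all probe sets passed. None had an unadjusted p under 0.05 there. Their means over the 12 arrays were 18.5 (AT2G04039), 15.8 (AT2G04060), 3.4 (bZIP48) and 2.7 (AT2G04063). In probe sets this dim, a lack of response cannot be told from a lack of signal. With arrays centred on their medians AT2G04060 passed upward at 4 h.

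The array has 2 probe sets that each match a pair of these neighbours. Probe set 263405_s_at, assigned together to AT2G04080, which lies beyond AT2G04070, and AT2G04066, which lies between the transporters, rose at 4 h to 98.1 ± 12.3 in oligomycin, against 29.0 ± 9.51 in ethanol (log2 change 1.36, limma adjusted p = 0.000117). At 1 h it did not pass (0.08, adjusted p = 0.902). Probe set 263404_s_at, assigned to AT2G04100 and AT2G04090, was at 68.9 ± 8.60 in oligomycin and 48.1 ± 3.75 in ethanol at 4 h and did not pass (0.40, adjusted p = 0.0758). All 4 of these genes were on the list of MATE genes, and which gene of a pair gave the signal cannot be told apart. DTX1 had no probe set named here. How far transcripts of these related genes bind to the probe sets of AT2G04050 and AT2G04070 was not tested.

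**Figure D4:**
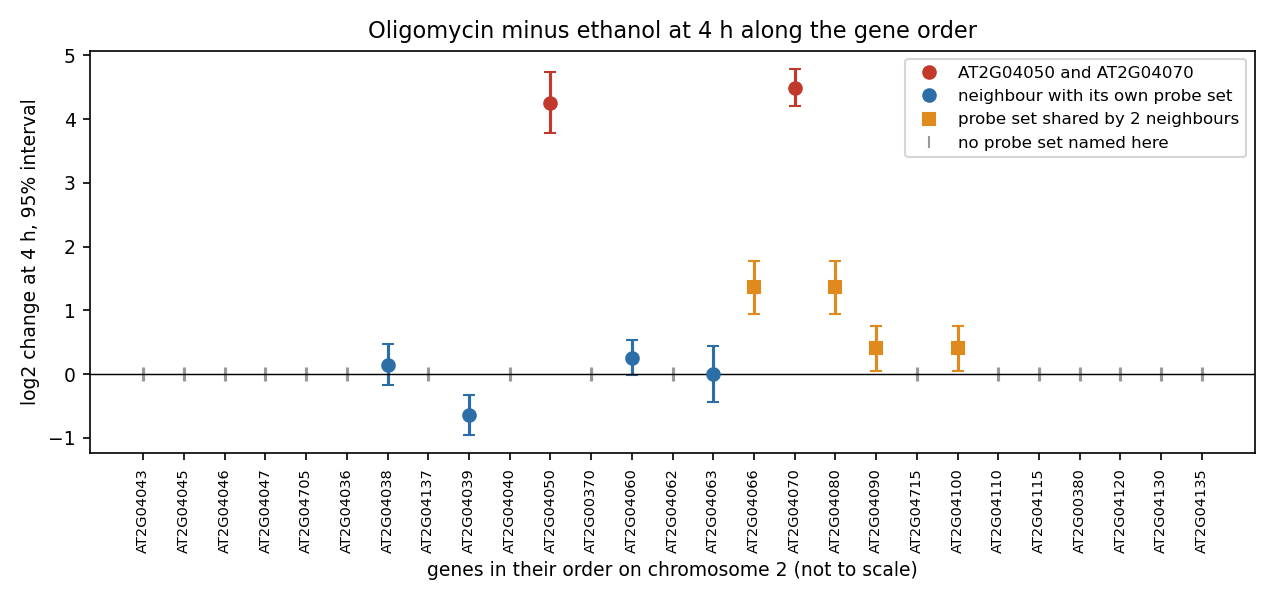
Log2 change of (intensity + 16) at 4 h, oligomycin minus ethanol, with 95% intervals, for 27 genes in their order on chromosome 2 (spacing not to scale). AT2G04050 (4.26) and AT2G04070 (4.50), in red, stood above the genes between them that had a probe set of their own, and a probe set shared by AT2G04066 and AT2G04080 (orange squares) had a change of 1.36.

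The 2 transporters had similar patterns over the 4 groups. Within a group, the array with the highest value was the same for both genes in oligomycin at 1 h and ethanol at 4 h. It differed between the genes in oligomycin at 4 h and ethanol at 1 h. Likeness was taken as the root mean square difference of log2(intensity + 16) over the 12 arrays, after each probe set had been centred on its own mean. By this measure AT2G04070 was the second nearest probe set to AT2G04050, and AT2G04050 the second nearest to AT2G04070, at 0.29. The nearest to AT2G04050 was AT1G26420 (0.25), followed after AT2G04070 by AT1G74870 (0.29), AT1G05060 (0.30) and UGT73B4 (0.34) among probe sets with 1 gene name. The nearest to AT2G04070 was AT4G39670 (0.28), with AT1G44130 (0.29), AT3G09405 (0.30) and AT1G05060 (0.30) after AT2G04050.

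These neighbours in pattern had log2 changes of 0.51 (AT1G44130) to 1.88 (UGT73B4) at 1 h. At 4 h their changes ran from 3.95 (AT1G26420) to 4.97 (AT4G39670). The measure takes in the size of a response as well as its timing, and it has no test. All 12 arrays served every gene, so the arrays are shared between the patterns compared.

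**Figure D5:**
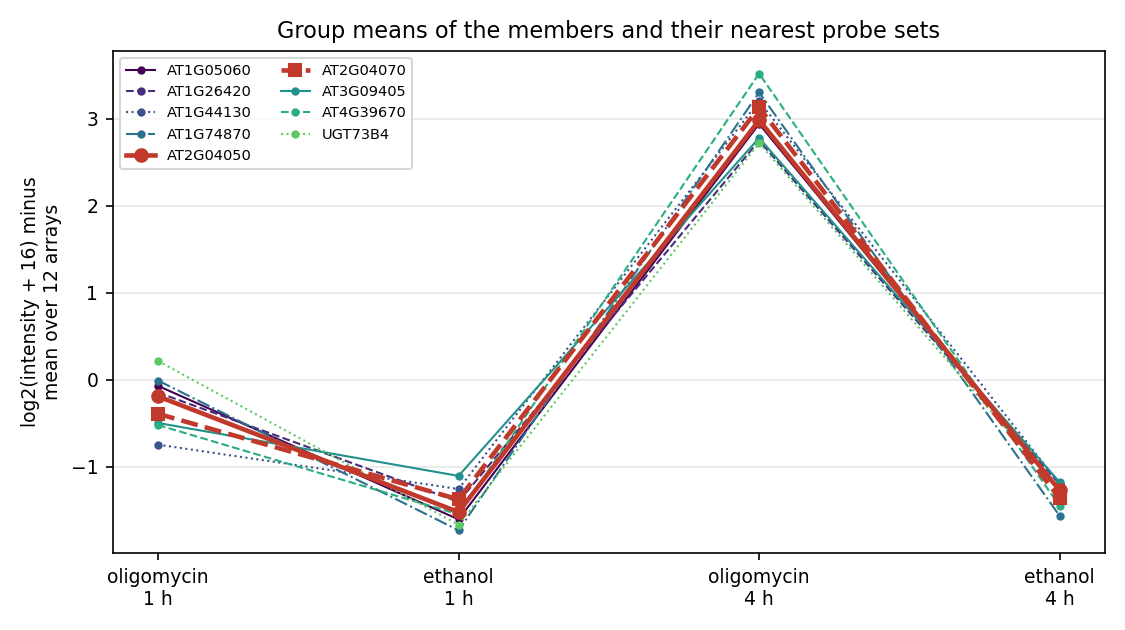
Mean of log2(intensity + 16) in each group, less each probe set's mean over the 12 arrays, for AT2G04050 and AT2G04070 (thick red) and the genes nearest to them (thin lines, which join the values of a gene). In all of them the value was highest in oligomycin at 4 h, lower in oligomycin at 1 h and lowest in the ethanol groups.

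The arrays of a group correlated with r between 0.975 and 0.993 over all probe sets. Of 6 shoot markers none and of 6 root markers 2 had a probe set of their own here, so only the root part of the seedlings could be checked. PYK10, a root glucosidase, was bright on all 12 arrays, while the root hair gene EXPA7 was dim and did not pass at either time (limma adjusted p = 0.992 and adjusted p = 0.173). PYK10 fell at 4 h to 1651 ± 42.3 in oligomycin, against 2730 ± 118 in ethanol (−0.72, limma adjusted p = 3.92e-05). Of all probe sets 25.3% fell at 4 h, and 15% with arrays centred on their medians. Whether the root part of the seedlings changed, and its part in the rise of the transporters, was not tested.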

How the data were processed

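The values are linear array intensity per probe set, as deposited in one table of 22810 probe sets. Per the submitters' processing notes RMA was used, whose version the sources used here do not give. The values held 166 zeros and no log scale, a form RMA does not usually give, so how the authors made them is not settled. The 64 control probe sets were left out. Probe sets were named through the annotation table of the array and TAIR10.1. No build is named for the array, so coordinates are not given, and promoter and protein sequences were not analysed here. The MATE list was written from general knowledge.

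Log2(intensity + 16) was fitted with limma 3.58.1 in R 4.3.3 to 4 group means over 12 arrays, with 8 residual and 4.14 prior degrees of freedom, two-sided moderated tests and Benjamini-Hochberg adjustment. The script was tested on simulated data. Members and lists were chosen with earlier results of these data known. Named genes were both transporters, each MATE gene or neighbour that passed for oligomycin, up to 5 with the largest change at 4 h per other list, and the 5 nearest in pattern. Named outside that rule were AT5G09570, NDB2, NDB4, AT2G41380, AT1G47530 and GSTU20. So were the neighbours and root markers that did not pass. All of these were named after their values had been seen. The highest probe set stood for a gene. Deviations of same-numbered arrays from their group means correlated weakly (r from −0.09 to 0.17 for 18 pairs, 3 of them over 0.1). Arrays with other numbers had r from −0.17 to 0.12. These values do not settle whether same-numbered cultures were handled together. Alternatives were a replicate block, 6 arrays only, an intensity trend, array weights, quantile normalization, median centring, leaving out the dimmest 40%, 1 or 32 added and each array left out.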

Additional observations from a re-analysis of the deposited data

Results flagged for a closer look

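For a set of named genes the effect of oligomycin differed between 4 h and 1 h by the limma interaction (adjusted p under 0.05), and the values below are log2 effects at 4 h minus those at 1 h. The difference was 2.93 for AT2G04050 and 3.51 for AT2G04070. Among other MATE genes it was 2.29 for AT3G23550, 2.04 for AT1G33110, 1.73 for AT1G71140, 0.73 for AT5G52050, 0.69 for AT5G52450, 0.67 for AT5G65380 and −0.87 for AT5G38030. For AT1G47530, a MATE gene named outside the rule, it was 0.62. For the probe set shared by AT2G04080 and AT2G04066 it was 1.28. In the mitochondrial dysfunction list it was 2.67 for AT1G05060, 2.03 for GSTU25, 1.33 for AT5G43450 and 0.58 for AT2G32020. Among genes for foreign compounds it was 2.11 for UGT73B4, 1.54 for UGT73B5, 1.21 for GSTU22 and −1.57 for GSTU26. For GSTU20, named outside the rule, it was −1.09. No group of 3 arrays was searched for outlying arrays.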

How the results depend on the processing

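The rises of AT2G04050 and AT2G04070 at 1 h and 4 h, the differences between the times and the rises within oligomycin passed the limma test under every alternative run for them. At 4 h the changes ran from 4.00 (32 added) to 4.56 (1 added) for AT2G04050 and from 3.92 to 5.46 for AT2G04070. At 1 h they ran from 1.15 to 1.58 and from 0.71 to 1.56 under the same alternatives. Leaving out 1 array gave 1.11 to 1.45 and 0.90 to 1.04 at 1 h, and 4.12 to 4.43 and 4.37 to 4.61 at 4 h. With the replicate block the changes were as reported (4.26 and 4.50 at 4 h), with limma adjusted p = 0.00483 and adjusted p = 0.0038 at 1 h. Whether the labels' numbers pair the arrays is not known. Among the named genes the block ended only the 1 h call of AT3G23550 (0.62, limma adjusted p = 0.0706).

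For AT2G04070 the change in ethanol, which was not called, was −0.037 with array weights and −0.098 to 0.11 with 1 array left out. The effect on AT2G04070 minus that on AT2G04050 at 4 h was −0.085 with 32 added, and 0.077 to 0.42 with 1 array left out. At 1 h it was −0.51 to −0.13 with 1 array left out.

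Falls among MATE genes in the difference between the times numbered 2 in place of 1 with the intensity trend, with array weights and without the dimmest 40%, and 1 to 2 with 1 array left out. MATE genes that fell at 1 h numbered 1 to 2 with 1 array left out. Among the neighbours at 4 h 1 rose with median centring, and 0 fell without the dimmest 40%, which left out AT2G04039. At 1 h values without a call changed sign for AT1G71140 (0.029 with array weights, 0.0034 after quantile normalization), for AT5G52050 (0.10 with array weights, 0.049 after quantile normalization, 0.034 with median centring, 0.021 with 1 added) and for AT5G52450 (0.029 with array weights). With 1 array left out they ran from −0.20 to 0.038 for AT1G71140, −0.12 to 0.15 for AT5G52050, −0.097 to 0.030 for AT5G52450, −0.015 to 0.45 for AT4G23030 and −0.13 to 0.23 for the probe set of AT2G04080 and AT2G04066. The cause was not tested. Over all probe sets the median of the changes at 4 h was 0.062 with centring and −0.099 as deposited.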
